A study of Mus musculus with 6 samples.

Results

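The adipogenic differentiation genes are 9 genes that are switched on as precursor cells mature into fat cells: Pparg, Cebpa, Adipoq, Fabp4, Lpl, Plin1, Cfd, Cd36 and Lep. They were chosen by name, and each was read from the Affymetrix probe sets annotated to its symbol and to no other. Of the 9 genes, 7 had such a probe set, among 18193 genes measured in this way. Plin1, which codes for the coat protein of the fat droplet, and Cfd, which codes for the secreted protease adipsin, are not analysed here. The 7 genes had 13 probe sets. Where a gene had several, the one whose log2 signal had the highest mean over the 6 arrays gave its main value and the others served as a check.

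Gene expression was compared in 2 groups of cultured bone marrow stromal cells (BMSC). iLarge T BMSC were injected into a vein of male C57Bl/6J mice, 6 to 8 weeks old, 24 h after the left middle cerebral artery had been blocked for 60 minutes, and 14 days later were taken out of the infarcted hemisphere by collagenase digestion and regrown at 33°C. Naïve Large T BMSC are the parent line, cultured at 33°C and never injected. By the methods, the cells of both groups were derived from the adherent marrow of Immortomouse (H-2Kb-tsA58, CBA/ca × C57Bl/10) mice. In these mice the H-2Kb promoter drives a temperature-sensitive SV40 large T antigen that keeps cells dividing at 33°C. Each group has 3 arrays, numbered 2, 4 and 6 for iLarge T and 1, 3 and 5 for naïve BMSC, and each array holds RNA pooled from 3 hemispheres or from 3 sets of naïve cells. No sort for a cell type is stated for the regrown cells. Growth at 33°C served as the selection, since by the methods infarcts of mice given wild-type BMSC or saline gave no growing cells. The paper reports that staining found the antigen in all cells recovered in this way. In such bulk samples, fewer cells of a type and less RNA per cell cannot be told apart.

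Fat cells and bone-forming cells arise from shared stromal precursors of the marrow, and marrow stromal cultures can be driven to store fat. In that programme the nuclear receptor PPARγ (Pparg) and the transcription factor C/EBPα (Cebpa) raise each other's expression and together switch on the genes of the mature fat cell. Among these, lipoprotein lipase (Lpl) frees fatty acids from circulating triglyceride, CD36 takes them up and FABP4 carries them inside the cell, while adiponectin (Adipoq) and leptin (Lep) are secreted as hormones. Lpl, Cd36 and Fabp4 are not restricted to fat cells: macrophages use all of them, and Cd36 and Fabp4 are also found in the endothelium of small vessels.

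Start site sequences of 3 of these genes are shown because they carry, or lack, the letters searched for here, which are given below. Each holds 250 bases before and 50 bases after an annotated start (RefSeq, GRCm38.p6), in the direction of the gene. The windows are chr6:115421816-115422115 on the plus strand for the most downstream of 3 annotated starts of Pparg, chr7:35119043-35119342 on the plus strand for Cebpa and chr5:17835847-17836146 on the minus strand for Cd36. Capitals mark TTGCNNAA, the C/EBP letters, in Pparg, TATAAA in Cebpa and AGGTCA, the core letters read by PPARγ and related receptors, in Cd36. The match in Cd36 and the one nearer the start in Pparg lie on the opposite strand, so their letters appear there as the reverse complement.
Pparg: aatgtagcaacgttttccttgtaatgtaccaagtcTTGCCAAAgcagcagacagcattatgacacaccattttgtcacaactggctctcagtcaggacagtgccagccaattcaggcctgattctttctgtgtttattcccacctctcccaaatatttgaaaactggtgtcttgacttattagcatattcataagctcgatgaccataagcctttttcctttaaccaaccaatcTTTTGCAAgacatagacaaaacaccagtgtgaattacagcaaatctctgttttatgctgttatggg
Cebpa: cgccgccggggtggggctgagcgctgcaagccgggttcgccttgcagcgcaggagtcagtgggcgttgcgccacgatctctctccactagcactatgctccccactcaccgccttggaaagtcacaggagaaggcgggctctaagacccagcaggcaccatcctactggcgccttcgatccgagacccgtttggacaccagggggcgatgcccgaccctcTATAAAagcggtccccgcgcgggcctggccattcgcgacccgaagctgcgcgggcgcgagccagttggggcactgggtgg
Cd36: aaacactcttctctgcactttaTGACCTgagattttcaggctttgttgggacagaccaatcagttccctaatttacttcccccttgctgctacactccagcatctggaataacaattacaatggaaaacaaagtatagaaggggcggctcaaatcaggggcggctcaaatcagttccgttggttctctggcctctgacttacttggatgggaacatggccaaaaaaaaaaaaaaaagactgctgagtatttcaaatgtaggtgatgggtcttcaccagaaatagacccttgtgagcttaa
Counted from the start, the matches began at -215 and -16 in Pparg, at -30 in Cebpa and at -228 in Cd36. Over both strands, 10.8% of 32851 promoter windows of the same length held TTGCNNAA, 16.3% held AGGTCA and 13.6% held TATAAA. A paired AGGTCANAGGTCA was in 0.0396% of them and in no window of these genes. The table matched 7 of the 9 genes with 9 windows, and Fabp4 and Lpl had no entry in it. Among the windows not shown, both others of Pparg held AGGTCA, at -28 and -9, and the window with the match at -9 also held TATAAA on the opposite strand, at -29. Plin1 held TTGCNNAA at -187 and -58, Lep held it at -55, and Adipoq and Cfd held none of the searched letters. These are matches of letters only, and a site that departs from the searched letters would not be found.

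Signals are MAS5 intensities on a linear scale, with each array scaled by the authors to a trimmed mean of 2500. Array medians lay between 315.0 and 450 in iLarge T and between 308.0 and 414 in naïve BMSC. A signal under the 40th percentile of its array, a limit of 183 to 299.6, is called near background here. Of 12 markers of marrow stroma, 11 were at or above this limit on each iLarge T array and 10 on each naïve array. Most probe sets of an array pass such a limit, so this count does not identify stroma. Of the arrays, 2 stood apart. At least 8-fold above every other array, 41 of 18193 genes (0.225%) peaked on iLarge T replicate 6, among them the macrophage genes Tyrobp, Ctss and Mpeg1, and 23 (0.126%) peaked on naïve replicate 1, among them the interferon-induced Rsad2, Oas1a and Usp18. On each of the other 4 arrays the count was 0 to 2. Results that rest on either array are given with and without it.

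Of the 7 measured adipogenic genes, Lpl was called lower in iLarge T BMSC and none was called higher. A call needed an adjusted p under 0.05 from limma, adjusted over all 45037 probe sets tested, and a change of at least 2-fold. By main probe set, 593 of all 18193 genes (3.26%) were called lower and 644 (3.54%) were called higher, 6.8% in either direction. At an unadjusted p under 0.05, 1 of the 7 genes was higher (Cebpa) and 1 was lower (Lpl), where 11.6% of all genes were higher and 10.5% lower. By the methods' t-test, 0 of the 7 were called on log2 or on linear signals. The fitted change was above 0 for 6 of the 7 genes, and for 9556 of all 18193 genes. The median was 1.82 on the log2 scale, against a median of 0.06 over all genes. This median is the value of Fabp4, which was 0.68 without iLarge T replicate 6, and the signals of Adipoq and Lep lay mostly near background. Signals of the groups did not overlap for Cebpa, which was higher on every iLarge T array, and for Lpl, which was lower on every one. Such separation was seen upward in 14.5% and downward in 13.1% of all genes. Counted over probe sets, 4.74% of 45037 were called, 2.47% higher and 2.27% lower, and of the 13 probe sets of these genes both of Lpl were called lower. The methods call the sets of experiments independent, and p-values here reflect how far the pooled RNAs scatter, with a precision that the number of arrays limits.

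**Figure D1:**
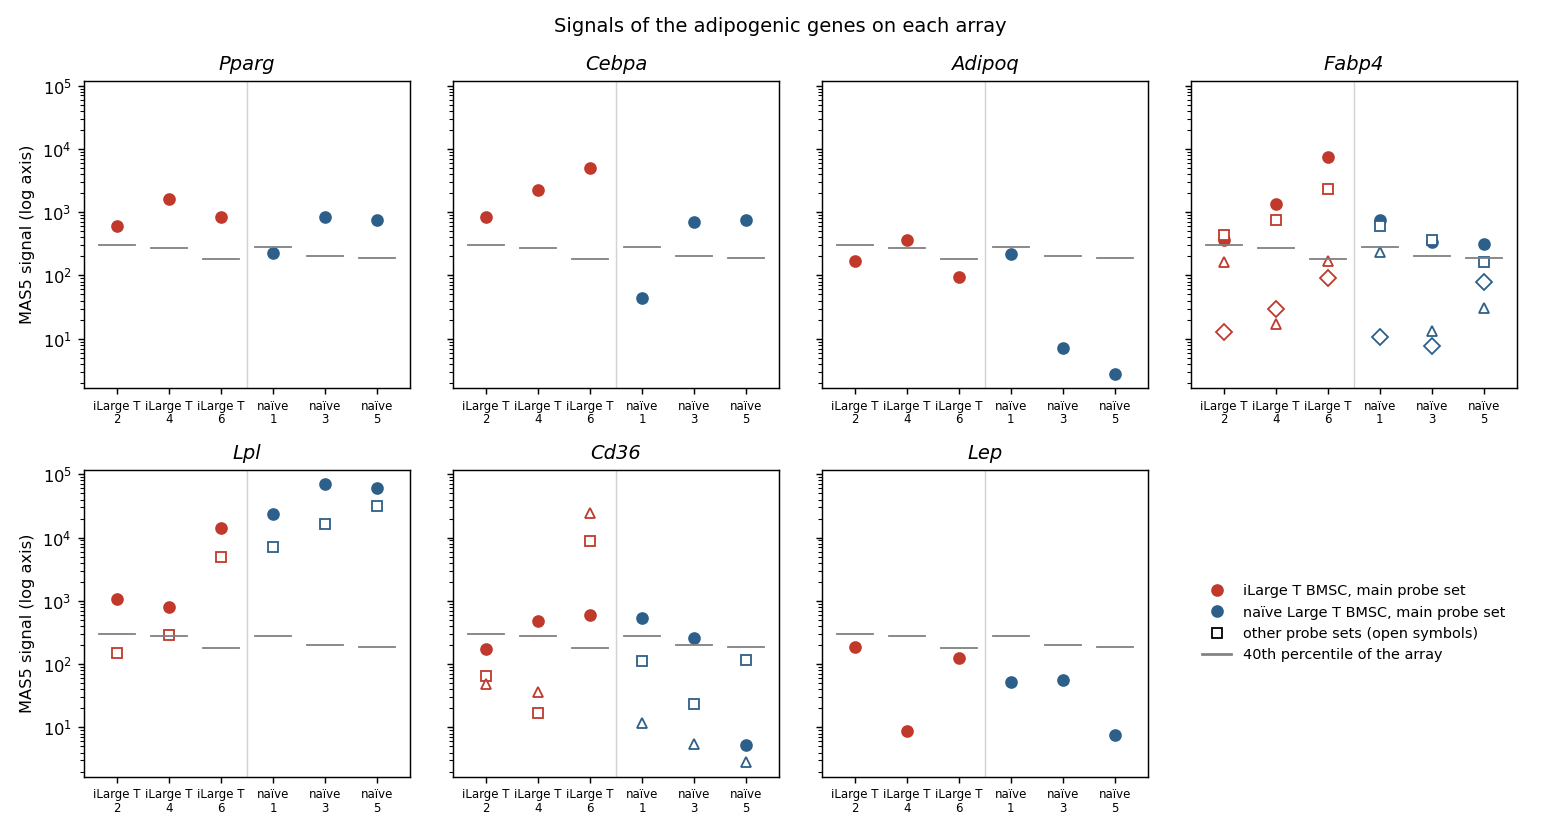
MAS5 signal (log axis) of each adipogenic gene on the 3 iLarge T arrays (red, left) and the 3 naïve arrays (blue, right). Filled circles are main probe sets, open symbols other probe sets, and grey bars the 40th percentile of each array (183 to 299.6). For Lpl all iLarge T arrays lie below all naïve arrays (808 to 14321 against 23338 to 71142), with iLarge T replicate 6 closest to them, and Lep is under the grey bars on all arrays.

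Lpl codes for lipoprotein lipase, the secreted enzyme that splits triglyceride of lipoproteins at the vessel wall. Its main probe set had signals of 1065, 808 and 14321 on iLarge T replicates 2, 4 and 6, against 23338, 71142 and 60780 on naïve replicates 1, 3 and 5. The mean was 5398 ± 7729 in iLarge T and 51754 ± 25148 in naïve BMSC (SD, n = 3 each). All iLarge T arrays were lower than all naïve arrays, and within iLarge T BMSC replicate 6 stood well above the other arrays. Lpl was 20.2-fold lower in iLarge T BMSC (log2 fold change -4.33, SE 0.93, adjusted p = 0.0281 from limma).

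A further probe set of Lpl gave the same order of the groups. Its signals were 153, 292 and 4978 on iLarge T replicates 2, 4 and 6, and 7216, 16234 and 32057 on naïve replicates 1, 3 and 5. The log2 fold change was -4.68 (SE 1.09, adjusted p = 0.0405), and here too iLarge T replicate 6 was the highest of its group. Without that array the change of the main probe set was -5.65 (SE 0.47, adjusted p = 0.00361), and without naïve replicate 1 it was -4.83 (adjusted p = 0.0110). The call was lost when iLarge T replicate 2 (-3.77, adjusted p = 0.126), iLarge T replicate 4 (-3.58, adjusted p = 0.118), naïve replicate 3 (-4.03, adjusted p = 0.102) or naïve replicate 5 (-4.14, adjusted p = 0.0826) was left out, and it was lost without limma's intensity trend (adjusted p = 0.183).

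Cd36 codes for a scavenger receptor that brings long-chain fatty acids and oxidised lipoproteins into cells, and its 3 probe sets did not behave alike. The main probe set had signals of 174, 474 and 589 on iLarge T replicates 2, 4 and 6, against 528, 256 and 5.31 on naïve replicates 1, 3 and 5. The groups overlapped, and the log2 fold change of 2.03 (SE 1.57, adjusted p = 0.584) was -0.01 (adjusted p = 0.998) without naïve replicate 5.

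The other probe sets of Cd36 were bright on a single array. One had 47.7, 36.0 and 24674 on iLarge T replicates 2, 4 and 6 and 11.7, 5.40 and 2.82 on naïve replicates 1, 3 and 5. Only iLarge T replicate 6 was above the near-background limit, and the log2 fold change of 5.95 (SE 2.24, adjusted p = 0.193) was 2.88 (adjusted p = 0.260) without it. The remaining probe set had 66.1, 16.9 and 8881 on iLarge T replicates 2, 4 and 6, and 113, 23.6 and 114 on naïve replicates 1, 3 and 5. It too was above the limit on iLarge T replicate 6 alone, and its log2 fold change of 1.67 (SE 2.02, adjusted p = 0.752) was -1.01 (adjusted p = 0.781) without that array.

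Fabp4, also called aP2, codes for the fatty acid-binding protein of fat cells and macrophages. Its main probe set had signals of 361, 1323 and 7345 on iLarge T replicates 2, 4 and 6, against 752, 341 and 311 on naïve replicates 1, 3 and 5. The groups overlapped, since iLarge T replicate 2 lay under naïve replicate 1. The log2 fold change was 1.82 (SE 0.94, adjusted p = 0.360), and it was 0.68 (SE 0.77, adjusted p = 0.730) without iLarge T replicate 6.

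A further Fabp4 probe set had 429, 747 and 2293 on iLarge T replicates 2, 4 and 6 and 606, 361 and 164 on naïve replicates 1, 3 and 5. It showed the same high array, with a log2 fold change of 1.45 (SE 0.75, adjusted p = 0.362) on all arrays and 0.78 (adjusted p = 0.693) without iLarge T replicate 6. The other 2 probe sets of Fabp4 were near background on all 6 arrays.

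Cebpa codes for C/EBPα, which keeps the fat cell state going once Pparg has been switched on. Its signals were 834, 2206 and 5072 on iLarge T replicates 2, 4 and 6, against 44.7, 687 and 758 on naïve replicates 1, 3 and 5. Every iLarge T array was above every naïve array, though the lowest iLarge T array was close to the highest naïve array, and naïve replicate 1 was near background. The log2 fold change was 2.88 (SE 1.06, unadjusted p = 0.0223, adjusted p = 0.184), which did not pass the test. It was 2.25 (adjusted p = 0.435) without iLarge T replicate 6 and 1.54 (adjusted p = 0.177) without naïve replicate 1. With signals under the limit raised to it, the change of 1.997 passed (adjusted p = 0.0433), and over the other alternatives the adjusted p lay between 0.164 and 0.536.

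Pparg codes for PPARγ, the receptor without which fat cells do not form. Its 1 probe set had signals of 599, 1637 and 846 on iLarge T replicates 2, 4 and 6, against 226, 853 and 750.0 on naïve replicates 1, 3 and 5. The groups overlapped, with naïve replicate 1 near background and the other naïve arrays within the range of iLarge T BMSC. The log2 fold change was 0.84 (SE 0.64, adjusted p = 0.578), and 0.23 (SE 0.51, adjusted p = 0.852) without naïve replicate 1.

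Adipoq codes for adiponectin, a hormone made almost only by fat cells. Its signals were 172, 360 and 95.0 on iLarge T replicates 2, 4 and 6, against 215, 7.11 and 2.77 on naïve replicates 1, 3 and 5. Only iLarge T replicate 4 reached the near-background limit, and the groups overlapped. The log2 fold change of 3.48 (SE 1.62, adjusted p = 0.304) rests on differences among signals near background: it was 0.30 (adjusted p = 0.810) with low signals raised to the limit and 5.34 (adjusted p = 0.0293) without naïve replicate 1.

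Lep codes for leptin, the hormone by which fat stores signal to the brain. Its signals were 185, 8.90 and 124 on iLarge T replicates 2, 4 and 6, and 52.4, 55.5 and 7.71 on naïve replicates 1, 3 and 5. All 6 were near background, so no level of Lep was measured in either group, and the log2 fold change was 1.06 (SE 1.46, adjusted p = 0.788). By main probe set, 11.2% of all genes were near background on all arrays, and Lep was the 1 adipogenic gene among them.

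**Figure D2:**
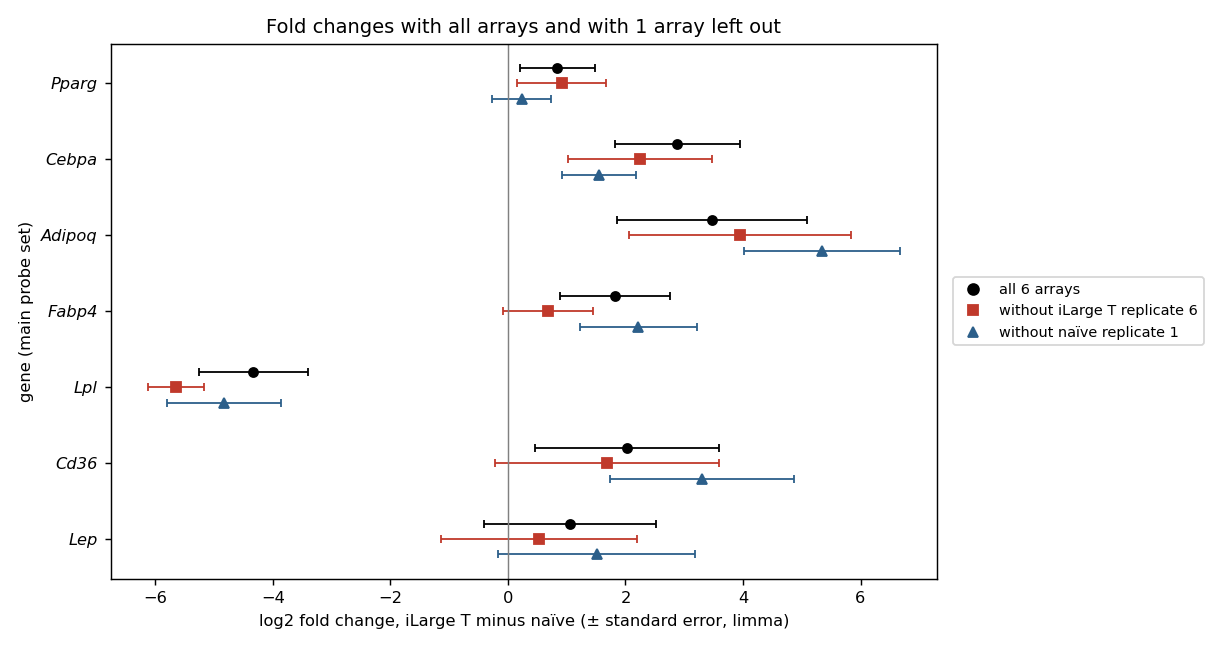
Log2 fold change of each adipogenic gene by main probe set, iLarge T minus naïve, with bars for the standard error from limma. Circles are the fits of all 6 arrays, squares those without iLarge T replicate 6 and triangles those without naïve replicate 1. Lpl lies between -5.65 and -4.33 in the 3 fits, while Fabp4 is at 1.82 with all arrays and at 0.68 without iLarge T replicate 6.

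The array on which Lpl, Fabp4 and the other Cd36 probe sets were highest among iLarge T BMSC also had high signals of marker genes of other cell types. The summed signal of 15 macrophage and microglia markers was 9574, 8474 and 219910 on iLarge T replicates 2, 4 and 6, against 4182, 12277 and 10453 on naïve replicates 1, 3 and 5. Of the 15 markers, 14 were highest on iLarge T replicate 6, among them Lyz2 at 78316 and Ptprc, the common antigen of blood cells, at 4440. On iLarge T replicate 4 Ptprc had 196, near background. No marker was at 0 on any array. Cd68, a lysosomal protein that is not restricted to macrophages, made up most of the sums on naïve replicates 3 and 5, with 9873 and 8396. Without Cd68, left out after its values were seen, the sums were 9257, 7145 and 202948 on iLarge T replicates 2, 4 and 6, against 3639, 2403 and 2056 on naïve replicates 1, 3 and 5. With all 15 markers the groups overlapped, and all iLarge T arrays were above all naïve arrays only in the sum without Cd68. On iLarge T replicate 4, Lyz2 (2844) and Csf1r (1892) were the largest parts of it. Of the 14 markers left, 10, 6 and 13 were at or above the limit on iLarge T replicates 2, 4 and 6. On naïve replicates 1, 3 and 5 they numbered 5, 6 and 4.

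The 12 endothelial markers summed to 10183, 10690 and 68434 on iLarge T replicates 2, 4 and 6, and to 9159, 12574 and 13415 on naïve replicates 1, 3 and 5. Of these, 11 were highest on iLarge T replicate 6. Tek made up most of the naïve sums, with 5703, 8480.1 and 9080.2, and without it, left out after its values were seen, the sums were 9681, 10232 and 67133 on iLarge T replicates 2, 4 and 6, against 3455, 4094 and 4335 on naïve replicates 1, 3 and 5. Cdh5, which codes for the cadherin of endothelial junctions, had 2211, 2787 and 23797 on iLarge T replicates 2, 4 and 6 and was near background on all naïve arrays, so that it was at least 24.1-fold higher in iLarge T BMSC (adjusted p = 0.00760). Leaving out iLarge T replicate 6 lowered this to at least 11.4-fold, and leaving out iLarge T replicate 2 gave at least 37.3-fold. Emcn, which codes for endomucin, was at least 23.3-fold higher in iLarge T BMSC (adjusted p = 0.00477), and at least 13.2-fold without iLarge T replicate 6, whereas Tek, the angiopoietin receptor, was lower, with a log2 fold change of -3.51 (adjusted p = 0.00243). Csf1r, the receptor that macrophages need to survive, was the 1 macrophage marker called higher, with a log2 fold change of 2.89 (adjusted p = 0.0151), and its call was lost without iLarge T replicate 2 (2.82, adjusted p = 0.0733), iLarge T replicate 6 (2.52, adjusted p = 0.0806), naïve replicate 3 (2.64, adjusted p = 0.0610) or naïve replicate 5 (2.66, adjusted p = 0.0517), with a fold change that stayed close to that of all arrays. The log2 fold change of Lpl, given above, was -4.33 with all arrays and -5.65 without iLarge T replicate 6. The part of these cells in the values of Lpl, Fabp4, Cd36 and Cebpa was not tested.

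**Figure D3:**
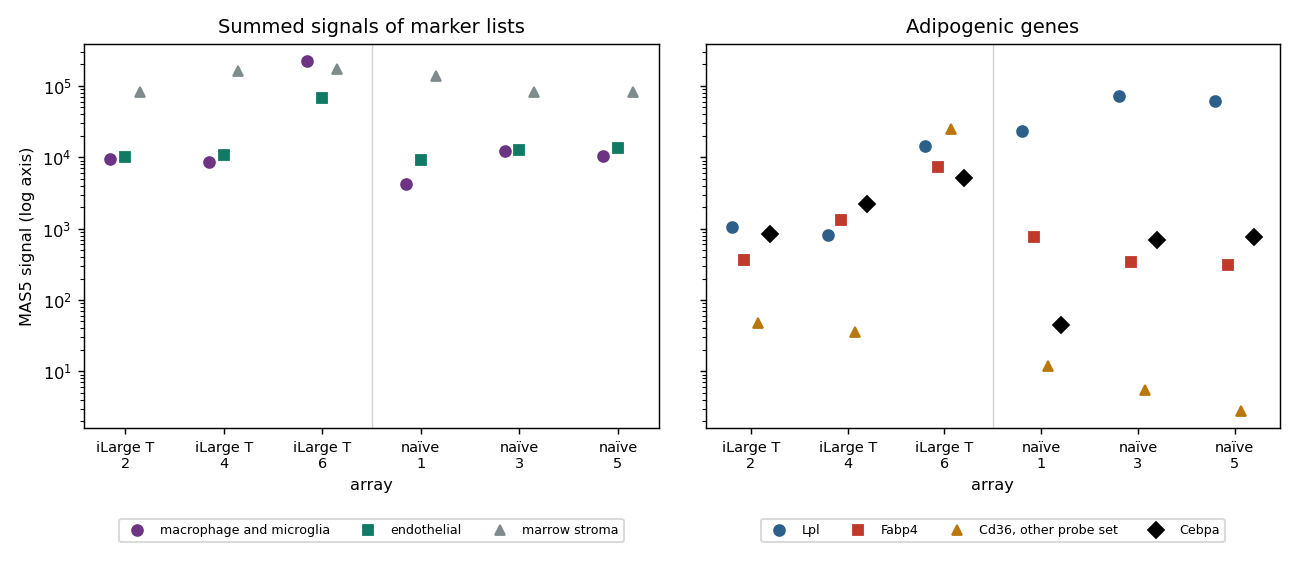
Left, summed MAS5 signal (log axis) of marker genes on each array, and right, signals of Lpl, Fabp4, Cd36 (a probe set other than the main one) and Cebpa on the same arrays. Both the macrophage and microglia sum (219910) and Cd36 (24674) have their highest value on iLarge T replicate 6, while Lpl on that array (14321) stays under all naïve arrays.

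Other cell markers differed between the groups beside Lpl. The 11 mesothelial markers summed to 4597 to 7417 on the iLarge T arrays and to 245645 to 305510 on the naïve arrays, and 7 of them were called lower, among them Upk3b (at least 203-fold, and 315-fold without naïve replicate 1) and Bnc1 (at least 119-fold). Of 12 marrow stroma markers, 2 were called higher and 1 lower. Pdgfrb, the receptor of mural cells and stroma, had 37998, 49816 and 57316 on iLarge T replicates 2, 4 and 6, against 2547, 4278 and 4188 on naïve replicates 1, 3 and 5. Vcam1, an adhesion molecule of stroma and mesothelium, averaged 6781 ± 2887 in iLarge T and 45166 ± 5748 in naïve BMSC (SD, n = 3 each, adjusted p = 0.00130). Foxc1 was higher, with a log2 fold change of 1.83 (adjusted p = 0.0198), a call that was lost when any array other than naïve replicate 1 was left out (0.0599 to 0.0912). Of 8 listed osteoblast markers 5 were measured, and Runx2, Bglap and Spp1 are not analysed here. The paper reports more osteopontin (Spp1) transcript in the recovered cells than in naïve BMSC. Of the 5 measured markers limma called none, 2 were higher at an unadjusted p under 0.05 (all genes, 11.6%), and Col1a1, the main collagen of bone, averaged 80127 ± 18717 in iLarge T and 35495 ± 15088 in naïve BMSC (adjusted p = 0.0932). Alpl averaged 558 ± 407 in iLarge T and 559 ± 74.7 in naïve BMSC (SD, n = 3 each, adjusted p = 0.890). The part of a change in cell makeup in the fall of Lpl was not tested.

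Around the 9 genes, 8 lists of 159 genes of fat cell formation and lipid handling were described, of which 149 genes were measured. Of these, 15 were called higher and 3 lower, with a median log2 fold change of 0.32, against 0.06 over all genes. The counts are descriptions beside the shares of all genes (3.54% higher and 3.26% lower), and no test of the lists was made. Without iLarge T replicate 6 they were 8 higher and 3 lower, without naïve replicate 1 they were 28 and 14, and without any other array 8 to 11 and 1. Among the fits with 1 array left out, all probe sets called higher were also most numerous without naïve replicate 1 (2342, against 1113 with all arrays). The lists followed, with 3 of the transcription factors, 8 of the inhibitors, 3 of the droplet genes, 5 of the uptake genes, 3 of the synthesis genes, 3 of the adipokines, 3 of the receptors and 1 of the thermogenic genes called higher there. Called lower there were 6 of the transcription factors, 2 of the droplet genes and 3 of the adipokines. The inhibitor, uptake and synthesis lists each had 1 called lower there, and the receptors and thermogenic genes had 0.

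Among 23 early and co-acting transcription factors, 1 was called higher, 3 were called lower and the median was -0.19. Nfib, a nuclear factor I protein of stem and precursor cells, had 3151, 5098 and 6309 on iLarge T replicates 2, 4 and 6, against 17294, 13068 and 17252 on naïve replicates 1, 3 and 5, and its call (-1.76, adjusted p = 0.0105) was kept whichever array was left out. Its relative Nfia had 1668, 1465 and 2000 on the iLarge T arrays and 4099, 7033 and 8869 on the naïve arrays (-1.90, adjusted p = 0.0125). Creb1, which mediates the cyclic AMP signal at the onset of fat cell formation, had 2959, 2781 and 3148 on the iLarge T arrays and 5960, 6188 and 7230 on the naïve arrays (-1.12, adjusted p = 0.0326). All these factors were lower on every iLarge T array. Ebf1, an early B-cell factor that also acts in fat cells, was the member called higher, with 6555, 2237 and 850 on iLarge T replicates 2, 4 and 6, and 354, 106 and 27.5 on naïve replicates 1, 3 and 5 (4.52, adjusted p = 0.0333). The calls of Ebf1 (adjusted p up to 0.154) and Creb1 (up to 0.164) were lost when any array other than naïve replicate 1 was left out, and that of Nfia without iLarge T replicate 2 (0.0513), iLarge T replicate 4 (0.0647), naïve replicate 3 (0.0687) or naïve replicate 5 (0.0648). With the most variable probe set of each gene, 0 of this list were called higher or lower, Nfib included, and likewise without the intensity trend. With the mean of the probe sets of a gene, 2 were called higher. Cebpb and Cebpd, which precede Pparg and Cebpa in the programme and are named for that role after their values were seen, averaged 20082 and 9773 in iLarge T and 26266 and 8423 in naïve BMSC (adjusted p = 0.809 and 0.933).

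Among 26 genes listed as inhibitors of fat cell formation, 4 were called higher and limma called none lower, also none at an unadjusted p under 0.05, and the median was 0.61. By the methods' t-test, 0 of this list were called in either direction. Without naïve replicate 1, limma called 8 of the inhibitors higher and 1 lower. Pdgfrb, given above, had a log2 fold change of 3.74 (SE 0.29, adjusted p = 0.000420). Il11, a cytokine that holds marrow stroma back from storing fat, had 10855, 3172 and 2253 on iLarge T replicates 2, 4 and 6 and was near background on all naïve arrays, at least 19.5-fold higher in iLarge T BMSC (adjusted p = 0.00371), and at least 12.2-fold without iLarge T replicate 2. Nr2f1, an orphan nuclear receptor, had 2865, 8077 and 9059 on the iLarge T arrays and 330.3, 771 and 376 on the naïve arrays (3.70, adjusted p = 0.00418). Sfrp1, a secreted protein that binds Wnt ligands, had 2715, 3290.3 and 1915 on the iLarge T arrays and 729.5, 327 and 314 on the naïve arrays (2.61, adjusted p = 0.0123). Wnt ligands themselves (Wnt5a, Wnt5b and Wnt10b) are in the same list, so counting Sfrp1 as an inhibitor is open to question. The calls of Pdgfrb, Il11 and Nr2f1 were kept whichever array was left out, while that of Sfrp1 was lost without iLarge T replicate 2 (0.0611), iLarge T replicate 4 (0.0803) or naïve replicate 3 (0.0525).

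The 19 measured genes of the lipid droplet coat and of lipolysis included 1 called higher, with a median of 0.68. Plin2, a droplet coat protein that is not restricted to fat cells, had 66767, 52805 and 52394 on iLarge T replicates 2, 4 and 6, against 12132, 15562 and 14336 on naïve replicates 1, 3 and 5 (2.03, SE 0.23, adjusted p = 0.00152). Every iLarge T array was above every naïve array, and the call was kept whichever array was left out. Lipe, the hormone-sensitive lipase of fat cells, named after its values were seen, ran the other way without passing the test, with 87.8, 447 and 364 on the iLarge T arrays and 849, 1395 and 1845 on the naïve arrays (-2.42, adjusted p = 0.0894). Without naïve replicate 1, limma called Lipe lower (-2.72, adjusted p = 0.0469). Cidea and Cidec, which enlarge droplets in fat cells, were near background on all 6 arrays.

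The 17 measured genes of fatty acid uptake and binding included 4 called higher and none called lower, with a median of 0.60, and 2 were called higher without iLarge T replicate 6. At an unadjusted p under 0.05, 7 were higher and 1 was lower (all genes, 11.6% and 10.5%). Without naïve replicate 1, limma called 5 of the uptake genes higher and 1 lower. Fabp7, the fatty acid-binding protein of brain, had 15091, 17375 and 7112 on iLarge T replicates 2, 4 and 6, against 72.9, 272 and 98.3 on naïve replicates 1, 3 and 5 (6.62, SE 0.56, adjusted p = 0.000581), with 1 of the naïve arrays at or above the limit. Fabp3, the binding protein of heart muscle, had 4634, 9196 and 8664 on the iLarge T arrays and 552, 1235 and 1204 on the naïve arrays (2.94, SE 0.42, adjusted p = 0.00441). Both calls were kept whichever array was left out.

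Angptl4 codes for a secreted inhibitor of lipoprotein lipase and was higher while Lpl was lower. It had 3697, 2860.5 and 2937 on iLarge T replicates 2, 4 and 6, against 370.3, 39.0 and 25.1 on naïve replicates 1, 3 and 5 (5.46, SE 0.93, adjusted p = 0.00998). The groups did not overlap, and naïve replicate 1 was at or above the limit. Olr1, a receptor for oxidised lipoprotein, had 1634, 1564 and 3913 on the iLarge T arrays and 182, 327 and 234 on the naïve arrays (3.16, adjusted p = 0.00955). The call of Angptl4 was lost without iLarge T replicate 2 (0.0623), 4 (0.0544) or 6 (0.0557), and that of Olr1 without iLarge T replicate 6 (0.0591). Gpihbp1, which tethers lipoprotein lipase to the vessel wall and is named for that role after its values were seen, had 232, 75.1 and 135 on the iLarge T arrays, all near background, and 506, 287 and 62.6 on the naïve arrays (adjusted p = 0.822).

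Of 24 measured genes of fatty acid and triglyceride synthesis, 2 were called higher and the median was 0.10. Dgat2, which adds the last fatty acid to triglyceride, had 2315, 2134 and 3398 on iLarge T replicates 2, 4 and 6, against 811, 825 and 651 on naïve replicates 1, 3 and 5 (1.76, adjusted p = 0.0227), and this call was lost when any array other than naïve replicate 1 was left out (0.0651 to 0.0999). Lpin3, a phosphatidate phosphatase, had 1551, 859.8 and 872 on the iLarge T arrays and was near background on all naïve arrays, at least 4.81-fold higher in iLarge T BMSC (adjusted p = 0.00829, lost at 0.0548 without iLarge T replicate 2).

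Of 19 measured adipokines and other secreted proteins, 2 were called higher and none lower, with a median of 1.09. The list was split, with a fitted change above 0 for 10 of the 19. By limma's unadjusted p under 0.05, 4 were higher and 4 were lower (all genes, 11.6% and 10.5%). Il6, a cytokine that fat tissue also releases, had 5440.4, 3421 and 12920 on iLarge T replicates 2, 4 and 6, against 1483, 22.9 and 120 on naïve replicates 1, 3 and 5 (5.28, adjusted p = 0.0398). Adm, the vessel-widening peptide adrenomedullin, had 12865, 11529 and 30189 on the iLarge T arrays and 3518, 256 and 132 on the naïve arrays (5.07, adjusted p = 0.0196). In both genes naïve replicate 1 was the highest naïve array and iLarge T replicate 6 the highest of all. The call of Il6 was lost when any array other than naïve replicate 1 was left out (0.0793 to 0.164), and that of Adm without any iLarge T array (0.0675 to 0.0977) or naïve replicate 3 (0.0728).

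Among 13 receptors and signaling genes 1 was called higher, with a median of -0.09. It was Cdh13, which binds adiponectin at the cell surface, with 1268, 4438 and 2674 on the iLarge T arrays and 481, 339 and 239 on the naïve arrays (2.86, adjusted p = 0.0161). Its call was lost without iLarge T replicate 4 (0.0992), iLarge T replicate 6 (0.0786), naïve replicate 3 (0.0562) or naïve replicate 5 (0.0537). Of 12 measured thermogenic genes limma called none in either direction, with 3 higher and 1 lower at an unadjusted p under 0.05 (all genes, 11.6% and 10.5%), and 0 by the methods' t-test. The genes named are Ppargc1b, a coactivator of mitochondrial genes, at 261 ± 176 in iLarge T and 985 ± 389 in naïve BMSC (adjusted p = 0.161), and Dio2, which activates thyroid hormone, at 985 ± 306 in iLarge T and 255 ± 93.0 in naïve BMSC (SD, n = 3 each, adjusted p = 0.0861). Ucp1, the uncoupling protein of brown fat, was near background on all 6 arrays.

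**Figure D4:**
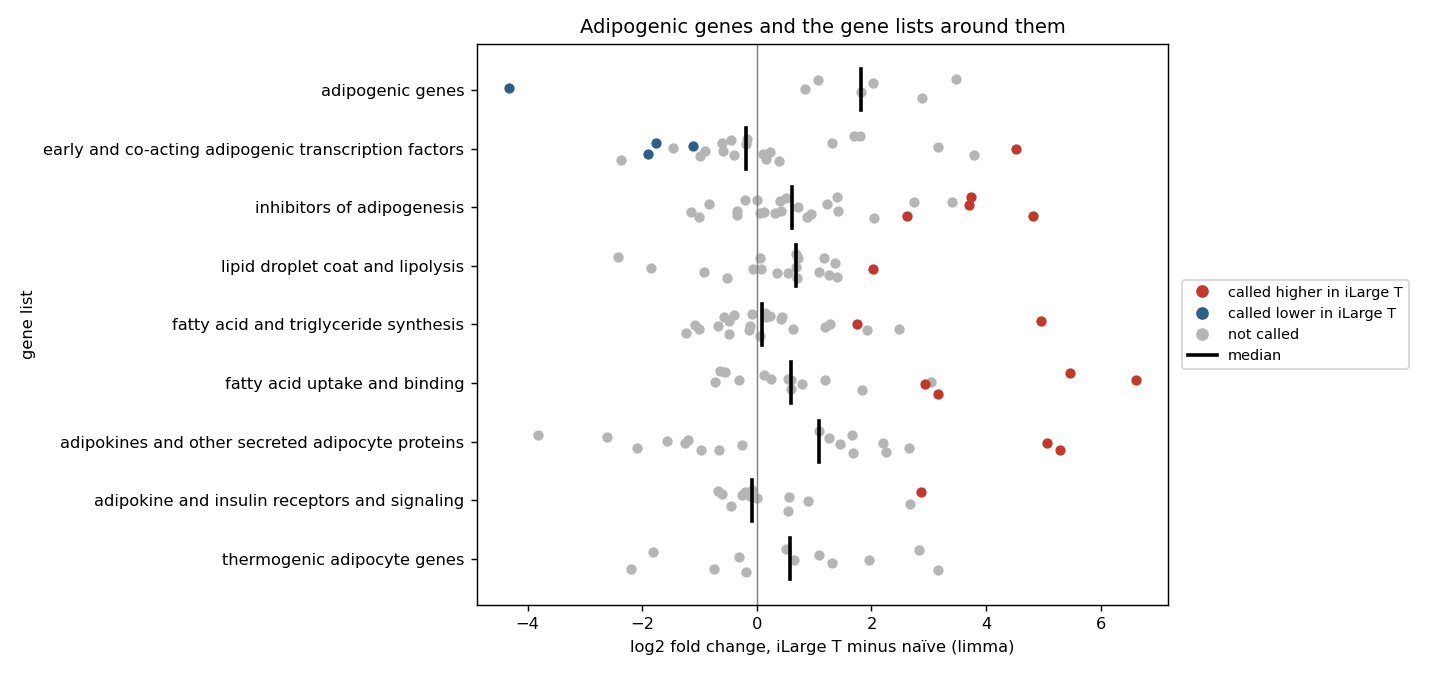
Log2 fold change (limma, iLarge T minus naïve) of each measured adipogenic gene and of each gene in 8 lists around them. Points are genes by main probe set, red where called higher, blue where called lower and grey where not called, and black bars are medians. Lpl is the blue point at -4.33 in the top row, and the red points number 15 in all over the 8 lists, with each gene counted once.

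Genes with the pattern most like each adipogenic gene were sought by Pearson's r of log2 signals over the 6 arrays among 12558 genes at or above the median signal. These values are descriptions over arrays of 2 groups. Since the closest of 12558 genes over only 6 arrays were taken, a high r does not show shared control. Closest to Lpl were Pccb (r = 0.997), Sox12 (r = 0.996) and Crip1 (r = 0.992). Crip1 had 3701, 1691 and 19569 on iLarge T replicates 2, 4 and 6, against 28037, 77407 and 77544 on naïve replicates 1, 3 and 5, with the same high array among iLarge T BMSC as Lpl. Closest to Cebpa were Mlph (r = 0.997), Tbc1d24 (r = 0.996) and Adipor1 (r = 0.993), a receptor of adiponectin, which had 20655, 24477 and 26398 on the iLarge T arrays and 11414, 18564 and 19264 on the naïve arrays.

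Closest to Fabp4 were Ier5l (r = 0.995), Cd14 (r = 0.987) and Xkr8 (r = 0.986). Cd14, a surface receptor of monocytes and macrophages, had 806, 1450.4 and 2443 on iLarge T replicates 2, 4 and 6 and 1062, 685 and 778 on naïve replicates 1, 3 and 5. Closest to Pparg were Rnf6 (r = 0.990), Wfs1 (r = 0.988) and Mmp3 (r = 0.988), and closest to the main probe set of Cd36 were Lrrc46 (r = 0.997), Art3 (r = 0.982) and BC065397 (r = 0.981). No such genes were sought for Adipoq and Lep, which were near background on all arrays of at least 1 group.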

How the data were processed

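Gene expression was measured on 6 Mouse Genome 430 2.0 arrays (Affymetrix), 3 of iLarge T and 3 of naïve Large T BMSC, each with pooled RNA. The values deposited by the authors are intensity signals on a linear scale, made with MAS5 (GeneChip Operating Software 1.2), without detection calls. Since these are missing, a signal under the 40th percentile of its array was treated as near background. Each array has the same trimmed mean, 2500 with 2% taken off each end.

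Of 45101 probe sets, 64 controls were left out. Of the other 45037, 34945 carry a single symbol in the annotation used, 932 carry several and 9160 carry none, and only the single-symbol ones were named. By gene identifier, 34741 were found in the RefSeq table and 0 symbols changed. Plin1 and Cfd are not analysed here.

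Log2 signals were compared, iLarge T minus naïve, with limma 3.58.1 in R 4.3.3 (lmFit, eBayes with trend) and Benjamini-Hochberg adjustment over all probe sets tested, after a check on simulated data. The 2-fold and 0.05 thresholds follow the study's methods. A fold against a group with all 3 arrays under the limit is a lower bound with these signals raised to it. Python 3.11.15 (pandas 2.3.3, numpy 2.4.6, scipy 1.17.1) served for tables and matplotlib 3.10.9 for figures.

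The members and gene lists were chosen with earlier results of these data known. The text names all adipogenic genes, up to 4 called genes of each list with the largest change, non-overlapping groups and a brighter group at or above the median, or else the 2 brightest, and the 3 genes most like each member. A few others are marked as chosen after their values were seen. As alternatives, the fit was repeated without the trend, after quantile or median normalization, on probe sets at or above the limit on at least 3 arrays, with low signals raised to the limit, with a pseudocount of 16, with the methods' t-test on both scales, and with other rules for the probe set of a gene, other fold thresholds and each array left out. Leaving out naïve replicate 1 and iLarge T replicate 6 together was added after seeing the data.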

Additional observations from a re-analysis of the deposited data

How the results depend on the processing

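No paired analysis was possible because the groups share no replicate numbers and neither the labels nor the methods say which arrays belong to 1 set of experiments. Of all probe sets, limma called 1113 higher and 1024 lower. These counts were 186 and 109 without the intensity trend, 15 and 13 with the methods' t-test on log2 signals, 33 and 67 on linear signals, and 2189 and 2375 without both naïve replicate 1 and iLarge T replicate 6. The count higher was 716 with arrays centred on their medians and 1677 with low signals raised to the limit, and the count lower was 596 at 4-fold. With 1 array left out they ran from 422 to 2342 higher and from 367 to 2140 lower. Centring moved the median log2 fold change of all genes from 0.06 to -0.14, and no adipogenic gene changed direction under it or under quantile normalization.

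Adipogenic genes called higher numbered 1 with low signals raised (Cebpa, 1.997) and 1 with both arrays left out (Adipoq, 5.81, adjusted p = 0.0363), and 0 to 1 with 1 array left out. Those called lower numbered 0 without the trend (Lpl, -4.33), with the methods' t-test on log2 (-4.33) or linear signals (-3.26) and with centring (-4.53, adjusted p = 0.0520), and 0 to 1 with 1 array left out. Over those fits Lpl ran from -5.65 to -3.58, Adipoq from 2.21 to 5.34 and Cd36 from -0.0113, a change of sign without naïve replicate 5, to 3.31. Adipoq and Lep were not tested where dim probe sets were left out. For Fabp4, the most variable probe set, near background on all arrays, gave 0.77.

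Of the list genes, 15 were called higher and 3 lower. The counts were 3 and 0 without the trend, 0 and 0 with the methods' t-test on either scale, 24 and 7 with low signals raised, and 27 and 17 without both arrays. Those lower were 0 with the most variable probe set and 0 at 4-fold. With 1 array left out they ran from 8 to 28 higher and from 1 to 14 lower. The causes were not tested. Signals near background limit what can be said of Adipoq, Lep, Cd36 and of naïve replicate 1 for Pparg and Cebpa.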

Other observations

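Of the 41 genes that peaked at least 8-fold on iLarge T replicate 6, the complement genes C1qa, C1qb and C1qc had signals of 8547, 5329 and 13466 there, and Mrc1, a mannose receptor of tissue macrophages, had 3606. Desmin (Des), an intermediate filament of muscle and mural cells, had 6237 on that array and Thy1, a surface protein of stroma and neurons, 41122. On iLarge T replicate 4 the 1 such gene was Agt (angiotensinogen) at 3247, and on iLarge T replicate 2 they were Serpinb2 at 20955 and Tnmd at 7379.

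Of the 23 genes that peaked in this way on naïve replicate 1, the array on which Pparg and Cebpa were near background, Rsad2 had a signal of 27366, Oas1a 31776, Usp18 36015, Irf7 12436 and Iigp1 21223, all interferon-induced. Bmp4, a growth factor that commits precursors to the fat cell lineage, had 70836 on this array, 9.74-fold above the next highest array.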
